A study of Homo sapiens with 24 samples.

Results

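The comparison described here sets MDA-MB-231 cells that overexpress the form of MRTF-A titled dSAP against the same cells that overexpress wild-type (WT) MRTF-A, both grown in plate culture (2D). The 6 libraries were chosen by their titles, 3 per line, out of 24 in the series. MDA-MB-231 is an established human breast cancer line of mesenchymal character. The series holds 4 lines (a control line, WT, dSAP and a form titled dSRF), each grown on culture plates or on top of matrigel (3D), with 3 RNA-seq libraries for each line and culture. All of these groups, the control line included, received doxycycline at 1 ug/ml for 72 h, the agent that induces the constructs, so no group shows cells without doxycycline. The labels do not spell out what dSAP and dSRF stand for, what the control line carries, or whether the 3 libraries of a group came from separate cultures; p-values then measure only the spread between these libraries, which may be technical. Each line is described by a single title, and nothing in the labels says whether it is a clone or a pool. The genotype field disagrees with the title for 16 of the 24 libraries, 4 of them among the 6 compared here, and the groups follow the titles.

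MRTF-A is a coactivator of the transcription factor SRF. In resting cells it is bound by monomeric actin and kept in the cytoplasm; when actin is assembled into filaments it is released, enters the nucleus and raises genes of the actin cytoskeleton, cell adhesion and smooth muscle contraction, many of which carry the CArG box that SRF binds. MRTF-A also holds a SAP domain, a small fold found in several chromatin and DNA-binding proteins, which has been linked to gene regulation that does not need SRF. In breast cancer cells MRTF-A is known for its part in migration and invasion.

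MRTFA itself, the gene that the constructs express (chr22:40410281-40636702 in GRCh38), was measured first, because it shows which libraries overexpress it. Its total level does not by itself tell the WT form from the dSAP form, so it does not check which form a library carries. It reached 4520.0, 4830.1 and 4879.8 CPM (counts scaled to a common library total) in the 3 WT libraries and 8675, 9578 and 8995 CPM in the 3 dSAP libraries, against a mean of 36.9 CPM in the control line. All 6 libraries thus lay far above the control line, and the dSAP libraries lay above the WT libraries with no overlap. The difference was 0.94 ± 0.043 on the log2 scale (dSAP minus WT, fitted value ± SE; adjusted p = 4.95e-13, edgeR quasi-likelihood test), or 1.91-fold. With all dSRF libraries added to the fit the difference stayed at 0.95 but was no longer called (adjusted p = 0.124, same test). The library 3D dSRF 1 had MRTFA at 671 CPM before TMM scaling, against 5146 CPM in 3D dSRF 2 and 5123 CPM in 3D dSRF 3. With only 3D dSRF 1 left out of the 24 the difference was again 0.95 and was called (adjusted p = 2.49e-14, same test). The level of the construct therefore differs between the groups along with its form, and in every result that follows the form and the level of the construct cannot be told apart. Reads of the cell's own MRTFA and of the construct were counted together. MRTFB, the related coactivator, had 25.9, 29.3 and 27.5 CPM in WT and 34.8, 33.9 and 35.2 CPM in dSAP, a difference of 0.33 ± 0.052 (adjusted p = 3.97e-05) that was not called on the authors' TPM scale, which also takes transcript length into account (0.20 on log2(TPM + 1), adjusted p = 0.332).

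The 6 libraries held between 15926141 and 19022293 estimated counts. Markers of MDA-MB-231 cells were present at 1 CPM or more for 8 of 8 genes, with a summed level of 7144 CPM in WT and 5946 CPM in dSAP, while ESR1, PGR, PTPRC and EMCN had no count. Of the lists for other cells, 5 of 8 luminal breast, 3 of 8 leukocyte, 1 of 6 endothelial and 4 of 8 fibroblast markers reached 1 CPM. The 4 fibroblast markers tested (COL1A1, COL1A2, LUM and PDGFRB) summed to 135 to 144 CPM in WT and 83.3 to 94.1 CPM in dSAP, with THY1 at 0. They did not move together. From WT to dSAP the mean of COL1A2 went from 89.1 to 35.8 CPM and that of LUM from 10.5 to 3.42 CPM. COL1A1 went from 18.4 to 20.4 CPM and PDGFRB from 21.6 to 29.4 CPM. The part of these markers in the results on matrix genes was not tested. The samples are bulk RNA, in which fewer cells of a kind and less RNA per cell cannot be told apart. Mitochondrial genes took 0.511 to 0.773% of counts in WT and 0.549 to 0.686% in dSAP. Correlations of log2 CPM were at least 0.981 within each group and at most 0.979 between the groups.

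Many genes differed between dSAP and WT, mostly by small amounts, and several of the largest falls were in contractile genes. Of 14346 genes tested, 4288 (29.9%) were called at an adjusted p under 0.05: 1843 (12.8%) higher and 2445 (17.0%) lower in dSAP. The median size of a called difference was 0.27 on the log2 scale, and 236 genes differed by at least 2-fold, 95 higher and 141 lower. The split depends on the scaling. On the deposited TPM values, which fix each library's sum, 2932 of the 14346 genes were higher and 890 lower. That is 76.7% higher among the called genes, against 43.0% on counts. The median of all genes moved from -0.0065 to 0.10 on the TPM scale, and was 0.0083 after TMM scaling of the TPM values. Differences below are relative to the median of all genes. A list whose median changes sign on the TPM scale is named as such, but a positive list median under 0.10 there is still below that of all genes. Adding the 6 dSRF libraries to the fit turned no named gene in plate culture but ended the call of MRTFA and of 35 others. Among the 35 were ACTB, ACTG2, ADAMTS1, CCN1, F3, CSF2, IL6, CDH2, KRT18, SRF, JUN, KLF6, ID1 (adjusted p = 0.0506, edgeR), ID3, ATOH8, GADD45A, EREG, EGFR, TFRC, TXN, CENPA, BIRC5, PLK1, TNS1 and KRT34. With only 3D dSRF 1 left out of the 24, a setting chosen after seeing the data, 1 named gene lost its call. That fit called 1930 genes higher and 2290 lower of 15246. With all 24 libraries 763 were higher and 1156 lower of 14986, and the list counts given below for all 24 libraries include 3D dSRF 1. List counts on the TPM scale or with all 24 libraries stand beside these totals of all genes.

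**Figure D1:**
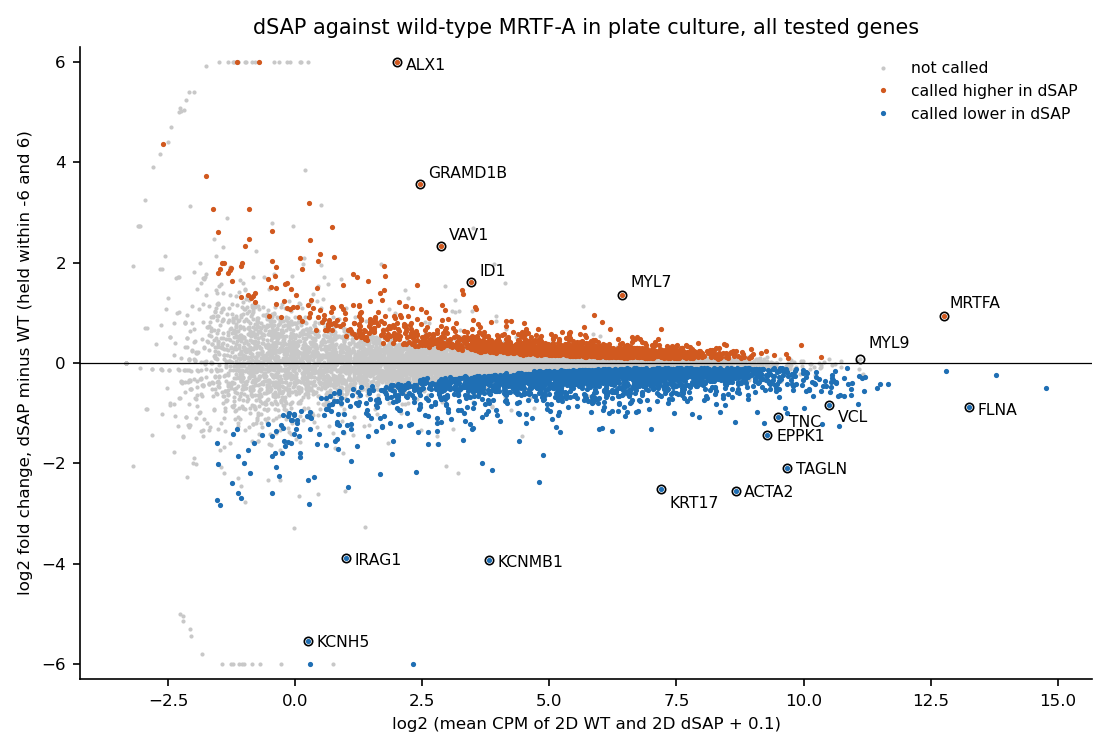
Each point is 1 of the tested genes, with the log2 of its mean CPM over 2D WT and 2D dSAP (plus 0.1) on the x axis and its fitted log2 fold change, dSAP minus WT, on the y axis, held within -6 and 6. Called genes are coloured; ACTA2, TAGLN, KRT17 and KCNMB1 lie among the lowest of the well-expressed genes, while MRTFA and MYL7 lie above 0 and MYL9 lies next to 0.

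Several smooth muscle contractile genes were among the largest falls. Of 20 listed genes 15 had enough counts to be tested, and of these 11 were lower and 1 was higher in dSAP, with a median of -0.47, against 17.0% lower and 12.8% higher among all genes. Against the control line 14 of the 15 were higher in WT and 14 were higher in dSAP. In those comparisons 54.5% and 49.7% of all genes were called, 28.3% and 26.1% as higher; they share libraries with each other and with the main comparison, so their values are only set side by side. With all 24 libraries in the fit 7 contractile genes were called lower.

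ACTA2, smooth muscle alpha-actin (chr10:88935074-88991339, minus strand), had 704, 679.8 and 692 CPM in WT and 94.3, 135 and 127 CPM in dSAP. The 3 dSAP libraries all lay far below the WT libraries, at 17.2% of the WT mean, and still far above the control mean of 3.30 CPM. The difference was -2.55 ± 0.092 (adjusted p = 8.91e-11); on the log2 scale ACTA2 stood 7.70 above control in WT and 5.15 above it in dSAP. TAGLN, which encodes the actin-binding protein transgelin (SM22), had 1322, 1326 and 1329 CPM in WT and 305, 323 and 312 CPM in dSAP. Its groups did not overlap either, and it fell by 2.08 on the log2 scale (SE 0.083, adjusted p = 1.23e-10). KCNMB1, the regulatory beta subunit of the calcium-activated potassium channel of smooth muscle, had 25.8, 25.7 and 26.7 CPM in WT and 1.98, 1.42 and 1.67 CPM in dSAP, with no count in the control line. In dSAP it kept 6.48% of its WT level (-3.93 ± 0.17, adjusted p = 1.51e-12), yet it remained at least 31.5-fold above the control line, where WT stood at least 481.0-fold above it (both bounds set the control group at 3 counts in all).

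The other contractile genes fell less. ACTG2, smooth muscle gamma-actin, had 1110.3, 1092 and 1078 CPM in WT and 486, 609 and 541 CPM in dSAP (-1.004 ± 0.060, adjusted p = 1.94e-09). LMOD1, an actin nucleator of smooth muscle, differed by -1.36, SYNPO2 by -1.20, CALD1 (caldesmon) by -0.67 and TPM1 (tropomyosin 1) by -0.46, all called. Because ACTA2, ACTG2 and the cardiac actin gene ACTC1 (-0.47) are nearly identical in their coding sequence, the authors' assignment of reads among them is uncertain. MYLK, the myosin light chain kinase, differed by -0.23 and was the only one of the 15 below control, by -0.19 in WT and -0.42 in dSAP on the log2 scale.

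A few genes of this list did not follow the rest. MYL9, the regulatory light chain of smooth muscle myosin, had 2071, 2262 and 2127 CPM in WT and 2185, 2479.7 and 2209 CPM in dSAP, so the groups overlapped (0.090 ± 0.059, adjusted p = 0.283). On log2(TPM + 1), where the median of all genes was itself 0.10, it was called higher (0.23, adjusted p = 0.00847, limma). MYL9 was 3.90 above control in WT and 3.99 above control in dSAP. MYL7, the atrial form of the same light chain, had 49.4, 48.1 and 48.2 CPM in WT, 111, 142 and 121 CPM in dSAP and no count in the control line. It rose by 1.36 (SE 0.075, adjusted p = 3.96e-09), which is 2.56-fold and opposite in direction to ACTA2 and TAGLN. CNN1, calponin, had 12.2, 13.1 and 12.2 CPM in WT and 9.31, 9.78 and 8.77 CPM in dSAP, and did not pass the test across the 18 libraries (-0.43 ± 0.27, adjusted p = 0.268) but did with only the 6 libraries compared (-0.41, adjusted p = 0.0046).

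**Figure D2:**
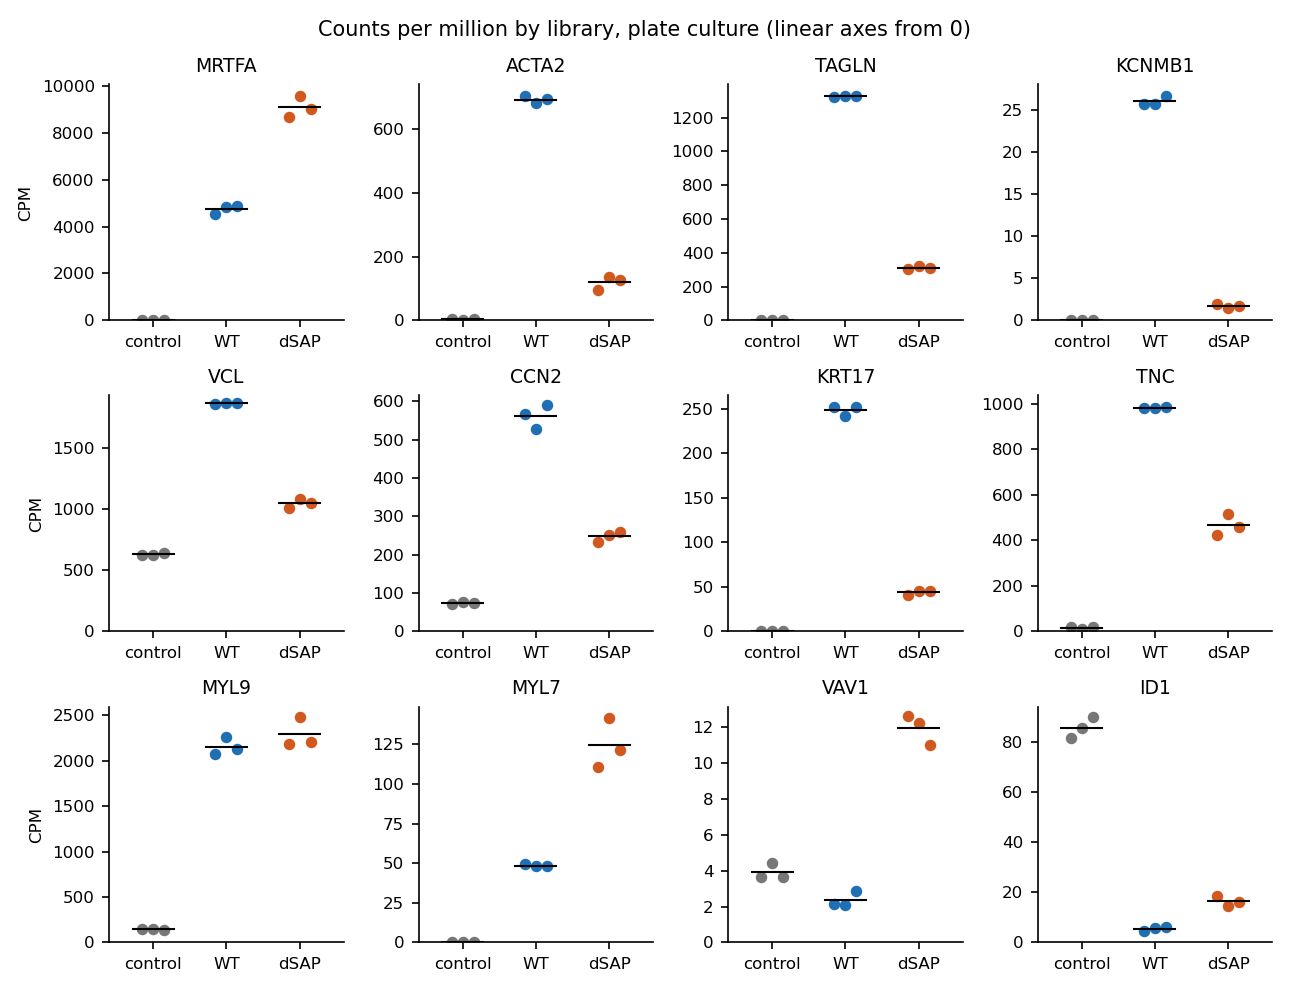
Level in CPM in each of the 3 control, 3 WT and 3 dSAP libraries in plate culture for 12 genes (points, 1 per library; line, mean; y axes linear from 0). The dSAP points lie between control and WT for ACTA2, TAGLN, KCNMB1, VCL, CCN2, KRT17 and TNC, above both for MRTFA, MYL7 and VAV1, level with WT for MYL9, and between WT and the higher control for ID1.

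Promoter sequence was read beside these values because the CArG box is the element by which SRF, the partner of MRTF-A, meets its targets. The following stretches lie before the annotated start of transcription (RefSeq, GRCh38.p14), are written 5′ to 3′ on the strand of the gene, and have 1 CArG box each in capitals; ACTG2 and SRF have 2 boxes and a line for each. ACTG2 and LDB3 are shown as contractile or sarcomeric genes that fell, TPM4 and FLNA as cytoskeletal genes that fell, SRF for its own promoter, and MYL7 as the gene of this kind that rose.
ACTG2, chr2:73892878-73892927, plus strand: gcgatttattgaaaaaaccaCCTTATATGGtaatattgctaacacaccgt
ACTG2, chr2:73892915-73892964, plus strand: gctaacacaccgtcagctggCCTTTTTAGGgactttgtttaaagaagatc
LDB3, chr10:86668434-86668483, plus strand: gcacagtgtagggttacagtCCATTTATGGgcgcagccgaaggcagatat
TPM4, chr19:16067345-16067394, plus strand: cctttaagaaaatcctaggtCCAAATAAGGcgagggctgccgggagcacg
FLNA, chrX:154374699-154374748, minus strand: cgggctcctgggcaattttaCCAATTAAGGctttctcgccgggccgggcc
SRF, chr6:43171219-43171268, plus strand: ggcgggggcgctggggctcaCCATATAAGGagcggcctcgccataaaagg
SRF, chr6:43171239-43171268, plus strand: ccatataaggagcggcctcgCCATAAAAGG
MYL7, chr7:44141364-44141413, minus strand: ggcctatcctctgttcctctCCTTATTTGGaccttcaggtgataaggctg
The boxes of ACTG2 begin 110 and 73 bases before the start, those of SRF 30 and 10 bases, that of LDB3 57 bases and that of MYL7 61 bases before it. MYL7, which rose, and LDB3, which fell by 2.18, thus both have a box within the last 100 bases before the start. No CArG box was found in the windows of ACTA2, KCNMB1, VCL and CCN2, which says only that these letters are not in the 250 bases before and 50 bases after the start.

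Across genes, a CArG box in this window was more frequent among those called lower. It was present in 76 of 1962 protein-coding genes called lower (3.87%), in 14 of 1486 called higher (0.942%) and in 81 of 7093 not called (1.14%), against 171 of all 10541 tested protein-coding genes with a window (1.62%) and 1.29% of all 35116 windows in the table. Windows were matched for 82.6% of the lower genes, 82.6% of the higher genes and 80.4% of the others. The pattern searched reads the same on both strands, no other motif was searched, and a match is a description of the sequence, not of SRF binding. In the contractile list 5 of 13 genes with a window held a box (ACTC1, ACTG2, MYL7, MYLK and SMTN), and in the cytoskeletal list 8 of 34. Both lists hold known targets of MRTF and SRF, so these 2 counts describe the lists and not dSAP against WT.

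Genes of the actin cytoskeleton and focal adhesions were mostly lower in dSAP. Of 36 tested, 30 were lower and 2 higher in dSAP, with a median of -0.38. Against the control line the same list had 31 members higher in WT (median 1.18) and 26 higher in dSAP (median 0.76). With any 1 of the 6 libraries left out, 29 were called lower.

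VCL, vinculin, which links integrin-bound talin to actin, had 1858, 1863 and 1864 CPM in WT and 1004, 1082 and 1049 CPM in dSAP. The dSAP libraries sat between WT and the control mean of 632 CPM (-0.83 ± 0.036, adjusted p = 2.08e-13). CSRP1, a LIM protein of actin bundles, had 729, 707 and 734 CPM in WT and 338, 398 and 369 CPM in dSAP (-0.97 ± 0.042, adjusted p = 2.08e-13). TPM4, a cytoskeletal tropomyosin, had 2779.6, 2725 and 2779 CPM in WT and 1524, 1607 and 1576 CPM in dSAP (-0.82 ± 0.033, adjusted p = 9.19e-14). FLNA, the crosslinker filamin A, had 12639.7, 12516 and 12934 CPM in WT and 6684, 7272 and 6938 CPM in dSAP (-0.87 ± 0.043, adjusted p = 1.70e-12). In these genes the 3 dSAP values never reached the lowest WT value.

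Actin itself was among the most abundant messages. ACTB had 32216, 32304 and 33793 CPM in WT and 21784, 24511 and 23199 CPM in dSAP, a fall of 0.50 (SE 0.043), and ACTG1 differed by -0.24. FHL2, a LIM protein that binds SRF, had 148, 151 and 152 CPM in WT and 94.3, 87.4 and 88.5 CPM in dSAP (-0.74 ± 0.052). Smaller called falls were found in MYH9 (-0.49), TLN1 (-0.46), ACTN1 (-0.41), CFL1 (-0.34) and WDR1 (-0.45). The 2 members called higher were FHL1 (0.36) and CNN2, calponin 2 (0.36); ZYX, zyxin, was not called (-0.066).

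**Figure D3:**
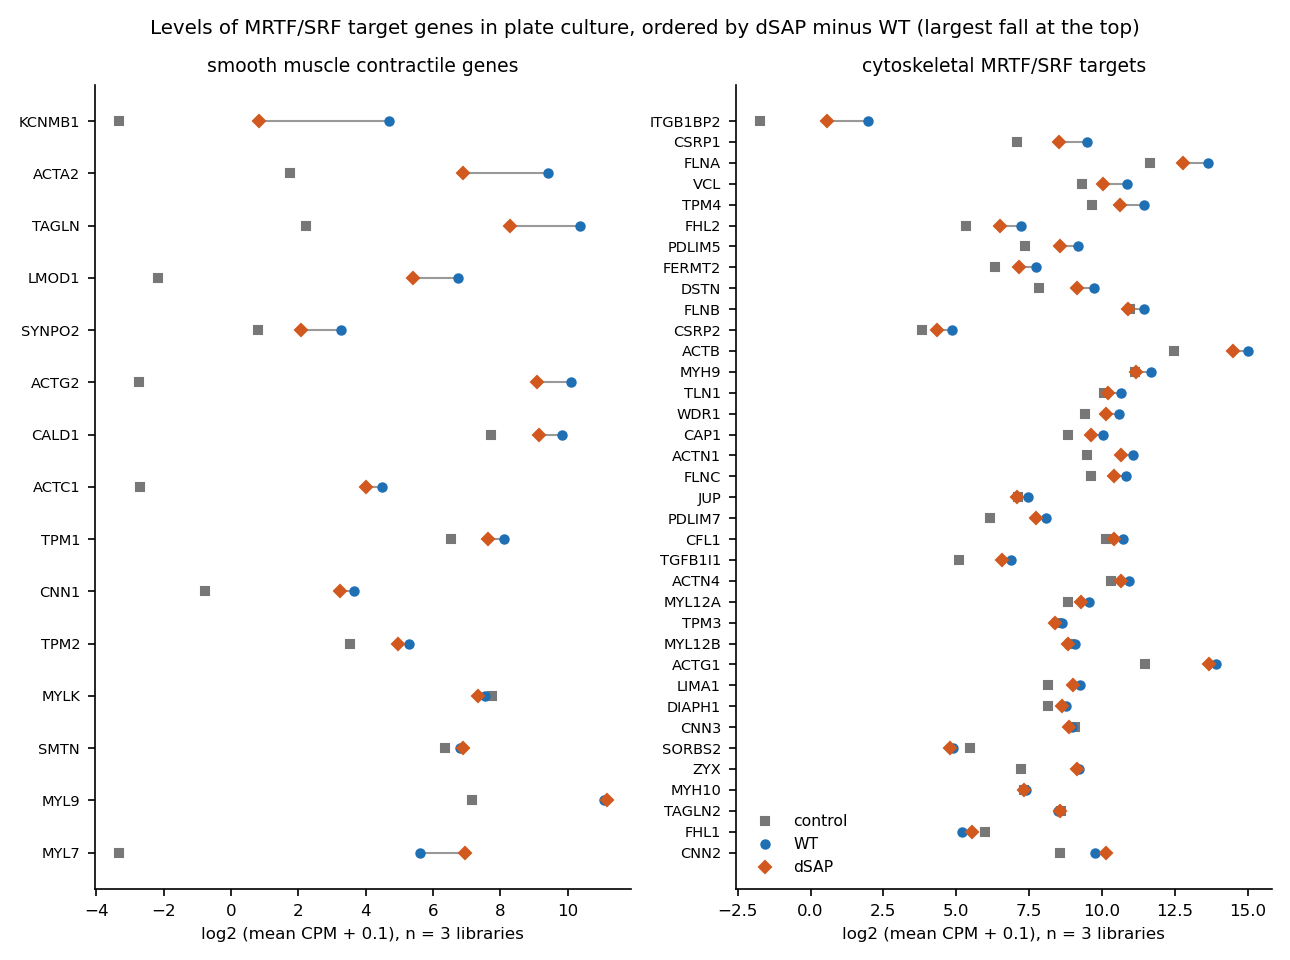
Mean level of each tested contractile gene (left) and cytoskeletal gene (right) in the control, WT and dSAP lines in plate culture (x axis: log2 of mean CPM + 0.1; n = 3 libraries per mean; genes ordered with the largest fall at the top). Most dSAP points lie between control and WT, MYL7 lies above WT at the bottom of the left panel, and MYL9 in dSAP lies next to WT.

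SRF, the partner of MRTF-A, had 401, 420.4 and 419 CPM in WT and 339, 353 and 350.4 CPM in dSAP, a small called fall (-0.25 ± 0.038, adjusted p = 3.18e-05). Among the 11 genes of the MRTF and SRF group 4 were higher (MRTFA, MRTFB, ELK3 and ELK4) and 3 lower (SRF, FHL2 and ACTB). The immediate early genes, which SRF also drives with the TCF partners ELK1, ELK3 and ELK4, gave 8 lower and 2 higher of 21, with a median of -0.25: ATF3 fell from 33.2 to 19.9 CPM (-0.74), DUSP5 differed by -0.53, KLF6 by -0.44, JUN by -0.40 and EGR1 by -0.75, all called. With all 24 libraries 5 were lower and 0 higher. KLF2 (0.48) and KLF4 (0.25) were the 2 called higher, neither by DESeq2, and FOS (-0.30) was not called.

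Targets of YAP and TEAD overlap with those of MRTF and SRF, and they were mixed: 9 of 22 were lower and 3 higher (3 and 1 with all 24 libraries). On the TPM scale 6 were lower and 6 higher. The median went from -0.10 to 0.017 there, below the 0.10 of all genes on that scale, and was -0.089 after TMM scaling of the TPM values. No direction is given for the list. Its best-known members were lower. CCN2 (CTGF), a matricellular protein, had 566, 528 and 589 CPM in WT and 234, 252 and 260.0 CPM in dSAP, with no overlap (-1.17 ± 0.047, adjusted p = 8.21e-14). CCN1 (CYR61) had 3264, 3151 and 3569.9 CPM in WT and 2374, 2447 and 2612 CPM in dSAP (-0.43 ± 0.046, adjusted p = 3.65e-07). ANKRD1 differed by -0.97 and F3, tissue factor, by -0.63. AMOTL1 (0.19), TEAD4 (0.35) and ARHGEF17 (0.14) were the 3 called higher.

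Integrins and extracellular matrix genes were lower in dSAP for most of the called members. Among 13 integrin genes 8 were lower and 2 higher (median -0.61, but -0.36 without 2D dSAP 1, -0.40 without 2D WT 1 and -0.21 on the TPM scale), and among 31 matrix genes 17 were lower and 4 higher (median -0.32, and -0.061 on the TPM scale). ITGA5, the fibronectin receptor subunit, had 1830.1, 1802 and 1859 CPM in WT and 686, 862 and 812 CPM in dSAP (-1.22 ± 0.056, adjusted p = 2.09e-12), and FN1, fibronectin, differed by -1.25. ITGA1, a collagen receptor subunit, differed by -0.95, ITGAV by -0.69, ITGB1 by -0.41 and ITGB3 by -0.63. The 2 integrins called higher were ITGA7 (0.79) and ITGB5 (0.22).

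TNC, the matricellular protein tenascin-C, had 979, 981 and 987 CPM in WT, 424, 517 and 456 CPM in dSAP and a mean of 16.7 CPM in the control line. All dSAP libraries lay below all WT libraries (-1.08 ± 0.088, adjusted p = 4.60e-07), and TNC stayed 4.78 above control in dSAP on the log2 scale, against 5.86 in WT. COL1A2, a chain of type I collagen, had 88.4, 86.7 and 92.3 CPM in WT and 32.5, 38.4 and 36.4 CPM in dSAP (-1.32 ± 0.087, adjusted p = 3.83e-09), while COL1A1, the other chain, was not called (0.15). COL5A1 (-0.62), COL4A1 (-0.43) and LOX, which crosslinks collagen (-0.98), were called lower, and VCAN (0.50), COL6A2 (0.17), COL13A1 (0.25) and EFEMP1 (0.27) were called higher.

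Proteases and their inhibitors did not move as a block: 6 of 14 were lower and 1 higher (4 lower with all 24 libraries). The median was -0.12, and 0.0064 on the TPM scale, where that of all genes was 0.10. After TMM scaling of the TPM values it was -0.10. TIMP3, a metalloprotease inhibitor, had 821, 820.1 and 839 CPM in WT and 342, 373 and 371 CPM in dSAP (-1.19 ± 0.11, adjusted p = 2.04e-06). ADAMTS1 had 184, 176 and 185 CPM in WT and 75.9, 69.97 and 72.9 CPM in dSAP (-1.32 ± 0.062, adjusted p = 1.51e-12). SERPINE2, a serine protease inhibitor, was the member called higher, at 1.80, 1.54 and 1.85 CPM in WT and 5.03, 4.44 and 4.85 CPM in dSAP (1.46 ± 0.21).

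Keratins and junction genes held some of the clearest single changes. KRT17, a keratin of basal epithelium, had the lowest p of all genes: 252, 242 and 252 CPM in WT against 40.7, 45.3 and 45.5 CPM in dSAP, from 4 counts in all over the 3 control libraries (-2.51 ± 0.061, adjusted p = 6.54e-18). It has near-identical relatives, KRT16 (-1.65) and pseudogenes, so its share of their reads is uncertain. EPPK1, epiplakin, which binds keratin filaments, had 871, 866 and 974 CPM in WT and 308, 335 and 357 CPM in dSAP (-1.44 ± 0.052, adjusted p = 3.25e-14). KRT8 (-0.44), KRT18 (-0.28) and KRT19 (-0.48) fell by less; in all 7 of 12 keratins were lower and 1 higher (median -0.27), against 5 lower and 2 higher on log2(TPM + 1) and 3 lower and 0 higher with all 24 libraries. CDH3, P-cadherin, had 19.7, 20.005 and 20.7 CPM in WT and 3.96, 5.34 and 5.94 CPM in dSAP (-1.99 ± 0.13, adjusted p = 9.48e-11), while the epithelial junction list as a whole gave 6 lower and 3 higher of 18 with a median near 0 (0.017), and 2 lower with all 24 libraries. Among mesenchymal genes 5 of 11 were lower and 0 higher (3 lower and 1 higher with all 24 libraries), among them CDH2, N-cadherin (-0.81), and VIM, vimentin (-0.38). The median of that list was -0.087, and 0.047 on the TPM scale, where that of all genes was 0.10. After TMM scaling of the TPM values it was -0.055.

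Regulators of migration and membrane shape gave 18 lower and 3 higher of 30 (median -0.12). On the TPM scale, where 890 of all 14346 genes were lower and 2932 higher, 7 were lower and 5 higher. With all 24 libraries, where 1156 of 14986 genes were lower and 763 higher, 8 were lower and 1 higher. MSN, moesin (-0.54), ARPC5, a subunit of the actin-nucleating Arp2/3 complex (-0.49), CORO1C (-0.37) and PAK1 (-0.48) were lower. Of the caveolae genes 4 of 8 were lower and 0 higher: CAV1, the caveolar coat protein, had 988, 1013 and 1008 CPM in WT and 731, 768 and 751 CPM in dSAP (-0.42 ± 0.043), and CAV2 (-0.57), CAVIN2 (-0.45) and EHD2 (-0.16) were the others, the last not called on the TPM scale.

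Several of the largest falls among genes of at least 1 CPM lay outside these lists. KCNH5, a voltage-gated potassium channel, had 99 counts over the 3 WT libraries and 2 over the 3 dSAP libraries, a ratio of 54.7 with a 95% interval of 14.7 to 458.0 that covers counting error only. IRAG1, a target of cGMP-dependent kinase that dampens calcium release in smooth muscle, had 4.14, 3.29 and 3.25 CPM in WT and 0.107, 0.257 and 0.346 CPM in dSAP, near the control mean of 0.243 CPM (-3.89 ± 0.30, adjusted p = 2.35e-09). LDB3, a protein of the muscle Z-disc, had 8.59, 8.39 and 7.90 CPM in WT and 1.71, 1.87 and 1.90 CPM in dSAP (-2.18 ± 0.17, adjusted p = 1.87e-09). GCNT4, a glycosyltransferase, had 25.3, 23.6 and 21.9 CPM in WT and 4.55, 6.82 and 4.79 CPM in dSAP (-2.14 ± 0.20). KANK1, which sits at the rim of focal adhesions, had 3.96, 5.60 and 5.54 CPM in WT and 1.02, 0.772 and 1.44 CPM in dSAP (-2.21 ± 0.22).

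Other large falls concerned genes near 1 to 2 CPM in WT. They were SLAMF7 (-2.80), a receptor of immune cells, TRAC (-2.34), the constant part of a T cell receptor chain, the adaptor SHC3 (-2.58), C12orf54 (-2.27), TNS1 (tensin 1, -2.26) and the muscle protein TRIM54 (-2.07). SHC3 and TNS1 were not called on log2(TPM + 1) (adjusted p = 0.331 and 0.875). NPPB, which encodes the natriuretic peptide BNP, and MYADM, a membrane protein, were among the 10 genes with the lowest p: NPPB had 336, 317 and 344 CPM in WT and 148, 162 and 163 CPM in dSAP (-1.07 ± 0.048), and MYADM had 1012, 1051 and 1045 CPM in WT and 531, 584 and 559 CPM in dSAP (-0.89 ± 0.041). NPPB was not called on log2(TPM + 0.1) (-0.95, adjusted p = 0.154).

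Genes that were higher in dSAP by large amounts were mostly of low level. ALX1, a homeobox transcription factor (chr12:85280107-85301784, plus strand), had no count in any WT or control library in plate culture and 7.22, 8.95 and 7.39 CPM in dSAP. It was at least 121-fold higher in dSAP than in WT, with the WT group set at 3 counts in all (adjusted p = 4.74e-10). GRAMD1B, a sterol transfer protein of the endoplasmic reticulum, had 0.901, 0.490 and 1.08 CPM in WT and 8.67, 9.91 and 11.2 CPM in dSAP, against 6.37 CPM in the control line (3.56 ± 0.19, adjusted p = 5.64e-12). VAV1, an activator of Rac GTPases best known in blood cells, had 2.16, 2.10 and 2.87 CPM in WT and 12.6, 12.2 and 11.02 CPM in dSAP, against 3.92 CPM in the control line (2.33 ± 0.15, adjusted p = 1.33e-10). GRAMD1B was thus lower than control in WT (-2.93) and higher in dSAP (0.64), and VAV1 likewise (-0.72 and 1.61).

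The other large rises started from under 2 CPM in WT. SYTL5, a Rab27 effector, had 0.420, 0.210 and 0.573 CPM in WT and 2.35, 2.70 and 3.06 CPM in dSAP (2.72 ± 0.47). CYFIP2, a subunit of the WAVE complex that drives branched actin, had 1.44, 1.68 and 0.956 CPM in WT and 4.60, 5.60 and 5.31 CPM in dSAP (1.93 ± 0.27). MMP8, a collagenase, had 0.300, 0.420 and 0.319 CPM in WT and 1.93, 2.06 and 1.73 CPM in dSAP (2.44 ± 0.46). DIO2, which activates thyroid hormone (2.17), VASH1 (2.03), NXF3 (1.87), FBXL16 (1.77), MAL2 (1.73), MYO7B (1.71) and IL2RB (2.03) rose as well. IL2RB was not called without 2D WT 1 (1.56, adjusted p = 0.0575), and the hair keratin KRT34, at 0.360, 0.280 and 0 CPM in WT and 2.25, 1.996 and 1.79 CPM in dSAP (3.19 ± 0.68), was not called by DESeq2 (adjusted p = 0.417).

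Genes that respond to bone morphogenetic proteins through SMAD factors were higher where they were called: 5 of 13 were higher and 0 lower in plate culture, with a median of 0.093. With all 24 libraries 1 of them was called higher. ID1, an inhibitor of differentiation factors and a direct BMP target, had 4.44, 5.88 and 5.99 CPM in WT and 18.6, 14.4 and 16.3 CPM in dSAP, against a control mean of 85.9 CPM. All dSAP libraries lay above all WT libraries and below control (1.61 ± 0.14, adjusted p = 6.88e-08). ID3 had 8.29, 7.55 and 8.09 CPM in WT and 17.5, 12.9 and 12.9 CPM in dSAP (0.86 ± 0.11, adjusted p = 6.09e-06), and the transcription factor ATOH8 had 0.240, 0.0699 and 0.191 CPM in WT and 1.34, 0.837 and 1.10 CPM in dSAP (2.64 ± 0.41). BMP4, a ligand of this pathway, had 42.1, 46.3 and 41.2 CPM in WT and 65.4, 57.04 and 61.9 CPM in dSAP (0.51 ± 0.080), and TGFB1 differed by 0.26. ID2 (-0.87) was not called.

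Lists of inflammatory and growth factor genes gave counts that moved with the fit. Of 24 chemokine, cytokine and feedback genes linked to NF-kB, 14 were lower and 2 higher (median -0.50), with 11 lower on log2(TPM + 1). With all 24 libraries 4 were lower, and with only 3D dSRF 1 left out of these 14 were. IL6 had 43.1, 39.7 and 43.9 CPM in WT and 20.8, 21.8 and 22.7 CPM in dSAP (-0.96 ± 0.083, adjusted p = 1.19e-08), CSF2 had 48.3, 47.7 and 51.3 CPM in WT and 17.9, 21.4 and 21.99 CPM in dSAP (-1.27 ± 0.099, adjusted p = 8.91e-09), and TNFAIP3, a feedback inhibitor, had 76.98, 73.02 and 73.8 CPM in WT and 37.9, 38.7 and 36.6 CPM in dSAP (-0.98 ± 0.062, adjusted p = 9.67e-11). CXCL8 (-0.82) and ICAM1 (-0.67) were lower too, and CSF1 (0.36) and NFKBIA (0.16) were the 2 called higher. In the EGF family 7 of 11 genes were lower and 1 higher, with 5 lower on log2(TPM + 1) and 2 lower with all 24 libraries: the ligands EGF, at 46.4, 45.7 and 42.7 CPM in WT and 22.2, 20.6 and 19.3 CPM in dSAP (-1.12 ± 0.075), TGFA (-0.44), AREG (-0.56) and EREG (-0.43) were lower, and the receptor EGFR was higher (0.21). Interferon response genes gave 8 lower and 4 higher of 37 with a median of -0.0019, near the 17.0% lower and 12.8% higher of all genes, and 3 lower both on log2(TPM + 1) and with all 24 libraries, so no direction is given for the list.

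Genes of stress and metabolism were lower to a modest degree. Of 26 genes of the ATF4 and unfolded protein response, 21 were lower and 1 (ATF5, 0.63) was higher, with a median of -0.43. ASNS, asparagine synthetase, had 73.2, 63.2 and 68.4 CPM in WT and 37.02, 41.7 and 42.9 CPM in dSAP (-0.75 ± 0.063, adjusted p = 5.90e-09), and PSAT1, of serine synthesis, had 119.9, 111 and 113 CPM in WT and 64.2, 60.4 and 63.9 CPM in dSAP (-0.87 ± 0.063, adjusted p = 1.15e-09). ATF4 itself differed by -0.55, the chaperone HSPA5 by -0.48 and MTHFD2 by -0.55. Glycolysis genes gave 16 lower and 0 higher of 21 (median -0.27; 9 lower with all 24 libraries), with GAPDH at 2289.7, 2328 and 2319 CPM in WT and 1512, 1735 and 1594 CPM in dSAP (-0.52 ± 0.044) and PGK1 at -0.52. Hypoxia response genes gave 14 lower and 1 higher of 21 (median -0.31; 8 lower with all 24 libraries), among them ADM (-0.61), P4HA2 (-0.72) and VEGFA (-0.45), with CA12 higher (0.65).

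Several broad lists depended on the scale and on the libraries in the fit. Ribosomal protein genes gave 16 lower of 31 (median -0.16) over the 18 libraries, 10 to 19 with 1 library left out (10 without 2D WT 2 or 2D dSAP 1) and 1 lower both on the TPM scale and with all 24 libraries. After TMM scaling of the TPM values 12 were lower, and with only 3D dSRF 1 left out of the 24, 14 were. The medians of the cholesterol (10 lower, 2 higher of 28), lysosome (10 lower, 1 higher of 24) and nuclear respiratory chain lists (11 lower, 1 higher of 32) lay at -0.087, -0.11 and -0.11. On the TPM scale they were 0.050, 0.013 and 0.015, each below the 0.10 of all genes there, and -0.053, -0.094 and -0.092 after TMM scaling of the TPM values. With all 24 libraries 5, 6 and 2 of them were lower, and with only 3D dSRF 1 left out of these 10, 8 and 9. The respiratory chain count was 5 to 9 with 1 library left out (5 without 2D WT 1, 2D WT 2 or 2D dSAP 3). Single genes in them differed more, among them STARD4, a sterol carrier, with 191, 176 and 190.0 CPM in WT and 124, 132 and 134 CPM in dSAP (-0.52 ± 0.042, adjusted p = 4.35e-09). CDKN1A, the p53 target that arrests the cell cycle, had 251, 242 and 252 CPM in WT and 138, 165 and 158 CPM in dSAP (-0.69 ± 0.064, adjusted p = 2.19e-07), and GADD45A differed by -0.75, whereas 13 of the 17 p53 targets were not called. TFRC (-0.19), FTL (-0.37) and TXN (-0.31) stood among 7 lower and 2 higher of 19 genes of NRF2 and iron handling (2 lower with all 24 libraries). The 13 genes of the mitochondrial genome gave 0 calls by edgeR and 0 by DESeq2, with 0 of 13 at an unadjusted p under 0.05.

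Cell cycle genes were slightly higher in dSAP in plate culture. Of 34 DNA replication genes 20 were higher and 2 lower (median 0.19), and of 30 mitosis genes 15 were higher and 0 lower (median 0.13). MCM2, a subunit of the replicative helicase, had 78.7, 84.4 and 86.8 CPM in WT and 111, 102 and 103 CPM in dSAP (0.34 ± 0.051). CENPA, the centromeric histone, had 16.03, 14.6 and 14.97 CPM in WT and 21.99, 18.5 and 21.7 CPM in dSAP (0.45 ± 0.082), and BIRC5, survivin, had 100.4, 106 and 105 CPM in WT and 126, 117 and 119.6 CPM in dSAP (0.22 ± 0.039). In each of these 3 genes the groups did not overlap, and each rise was under 0.5 on the log2 scale. With 1 library left out, between 8 (without 2D dSAP 1) and 16 of the mitosis genes were called higher. With all 24 libraries 0 were, beside 3 replication genes. With only 3D dSRF 1 left out of the 24, 15 mitosis and 20 replication genes were called higher. Of the 30 mitosis genes 28 were lower than control in WT (median -0.39) and 25 in dSAP (median -0.28), against 26.2% and 23.6% of all genes. Replication-dependent histone genes gave 1 higher and 0 lower of 13. On the TPM scale, where 2932 of all 14346 genes were higher, 9 were higher, and after TMM scaling of the TPM values 1 was.

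The same lines grown on matrigel gave a second comparison with no library in common. There 4145 of 14346 genes (28.9%) were called, 1653 (11.5%) higher and 2492 (17.4%) lower. Of the 2445 genes lower in plate culture 1301 were also lower on matrigel (53.2% of the first list and 52.2% of the second) and 76 were higher; of the 1843 higher genes 600 were also higher (32.6% and 36.3%) and 123 were lower. Among well-measured genes that differed by at least 2-fold in plate culture, 83 of 116 lower genes and 38 of 61 higher genes were called in the same direction on matrigel, with 1 and 0 in the opposite direction. The 1 was DUSP2, a phosphatase of MAP kinases named after its values were seen (-1.02 in plate culture, 0.67 on matrigel). MRTFA was higher in dSAP there as well (1.20), by more than in plate culture (difference 0.26 ± 0.060, adjusted p = 0.00609), though that difference was not called on the TPM scale (adjusted p = 0.229).

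The contractile and cytoskeletal genes fell in both cultures. On matrigel 11 of 15 contractile genes (median -1.03) and 32 of 36 cytoskeletal genes (median -0.50) were lower, and with all 24 libraries 8 and 23. The difference between cultures was called for 7 contractile and 9 cytoskeletal genes with a lower value on matrigel, but for 2 to 8 of the latter with 1 library left out (2 without 2D WT 1 or 2D WT 3) and for 0 of either list with all 24 libraries. ACTA2 differed by -2.63 on matrigel, with no called difference between cultures (-0.085 ± 0.12, adjusted p = 0.728), and MYL7 rose in both (1.73 on matrigel). The fall on matrigel was larger for TAGLN (-2.59; difference -0.50 ± 0.11, adjusted p = 0.0102), KRT17 (-3.24; -0.74 ± 0.097, adjusted p = 3.67e-05) and VCL (-1.01; -0.17 ± 0.051, adjusted p = 0.0267). KCNMB1 was lower in both cultures (-5.91 on matrigel), but its difference between cultures was -1.98 on counts, -1.14 on log2(TPM + 0.1), where it was not called (adjusted p = 0.0899), and 0.24 on log2(TPM + 1).

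**Figure D4:**
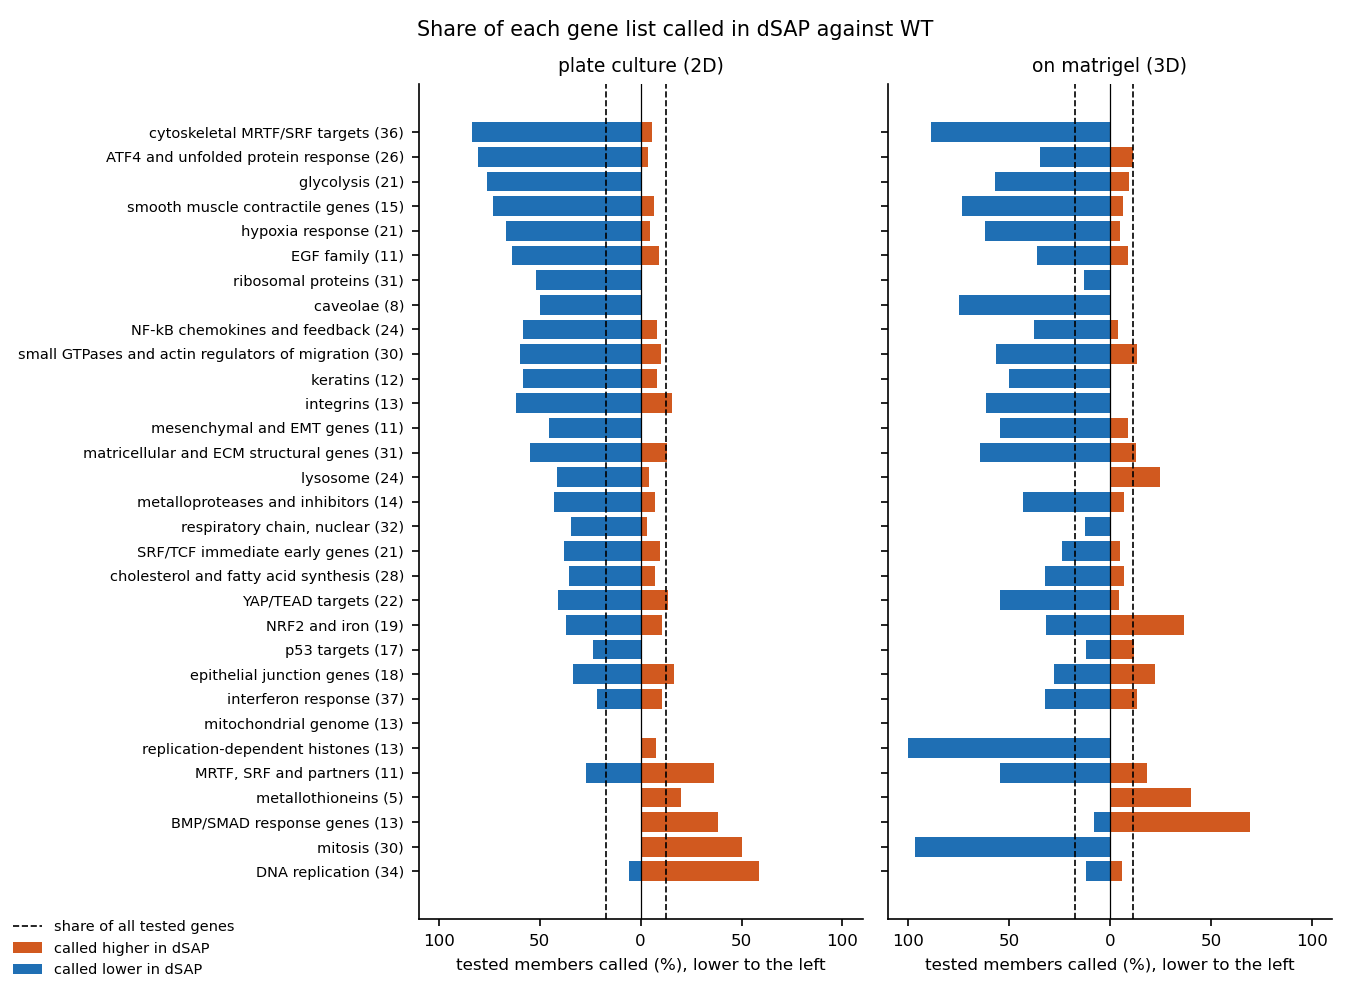
Percentage of the tested members of each gene list called higher (right of 0) or lower (left of 0) in dSAP against WT, in plate culture (left panel) and on matrigel (right panel); the number tested is in brackets and dashed lines mark the share of all genes. Cytoskeletal and contractile genes are mostly lower in both panels, while mitosis genes are on the right of 0 in plate culture and on the left on matrigel.

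Cell cycle and stress genes depended on the culture. The difference between cultures was called for 1830 genes (12.8%), 761 (5.30%) with a higher and 1069 (7.45%) with a lower value on matrigel. With all 24 libraries in the fit it was called for 207, and no longer for MRTFA, KRT17, KCNMB1 and ID1. Of the 30 mitosis genes 29 were lower in dSAP on matrigel (median -0.27; 14 lower on the TPM scale), and for 27 of 30 the difference between cultures itself was called (22 on the TPM scale). PLK1, a mitotic kinase, differed by 0.26 in plate culture and -0.32 on matrigel, and the difference was -0.58 ± 0.073 (adjusted p = 2.34e-05). Of the 13 histone genes 13 were lower on matrigel (median -0.43), and the difference was called for 13. DNA replication genes gave 2 higher and 4 lower of 34 on matrigel, or 7 higher and 0 lower on the TPM scale, with the difference called for 8 (4 to 11 with 1 library left out; 4 without 2D dSAP 1). With all 24 libraries in the fit 4 mitosis genes, 0 histone genes and 0 replication genes were lower on matrigel, and the difference was called for 0 genes of each of these 3 lists; with only 3D dSRF 1 left out of the 24, 28 mitosis and 13 histone genes were lower there and the difference was called for 27, 13 and 8.

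The ATF4 and unfolded protein response went the other way: its median was -0.43 in plate culture and -0.018 on matrigel (0.059 on the TPM scale), and the difference was positive for 14 of 26 genes and negative for 1, or 3 and 0 with all 24 libraries. HSPA5 differed by -0.48 in plate culture and 0.10 on matrigel (0.58 ± 0.11, adjusted p = 0.00288). FTL, the ferritin light chain, was lower in plate culture (-0.37) and higher on matrigel (0.34; adjusted p = 3.13e-05). Of the 24 lysosome genes 13 had a positive difference and 0 a negative one (7 to 14 with 1 library left out, 7 without 2D dSAP 1, and 3 with all 24 libraries). Within plate culture the median of that list changed sign on the TPM scale, but lay below that of all genes on either scale. ID1 rose in both cultures but by less on matrigel (0.65; difference -0.96 ± 0.15, adjusted p = 0.000536), from a far higher WT level of 99.4 CPM, and 9 of 13 BMP response genes were higher there (1 with all 24 libraries). VAV1 rose by more on matrigel (4.74; difference 2.42 ± 0.25, adjusted p = 3.44e-06), where its WT mean was 0.450 CPM and its dSAP mean 12.2 CPM.

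**Figure D5:**
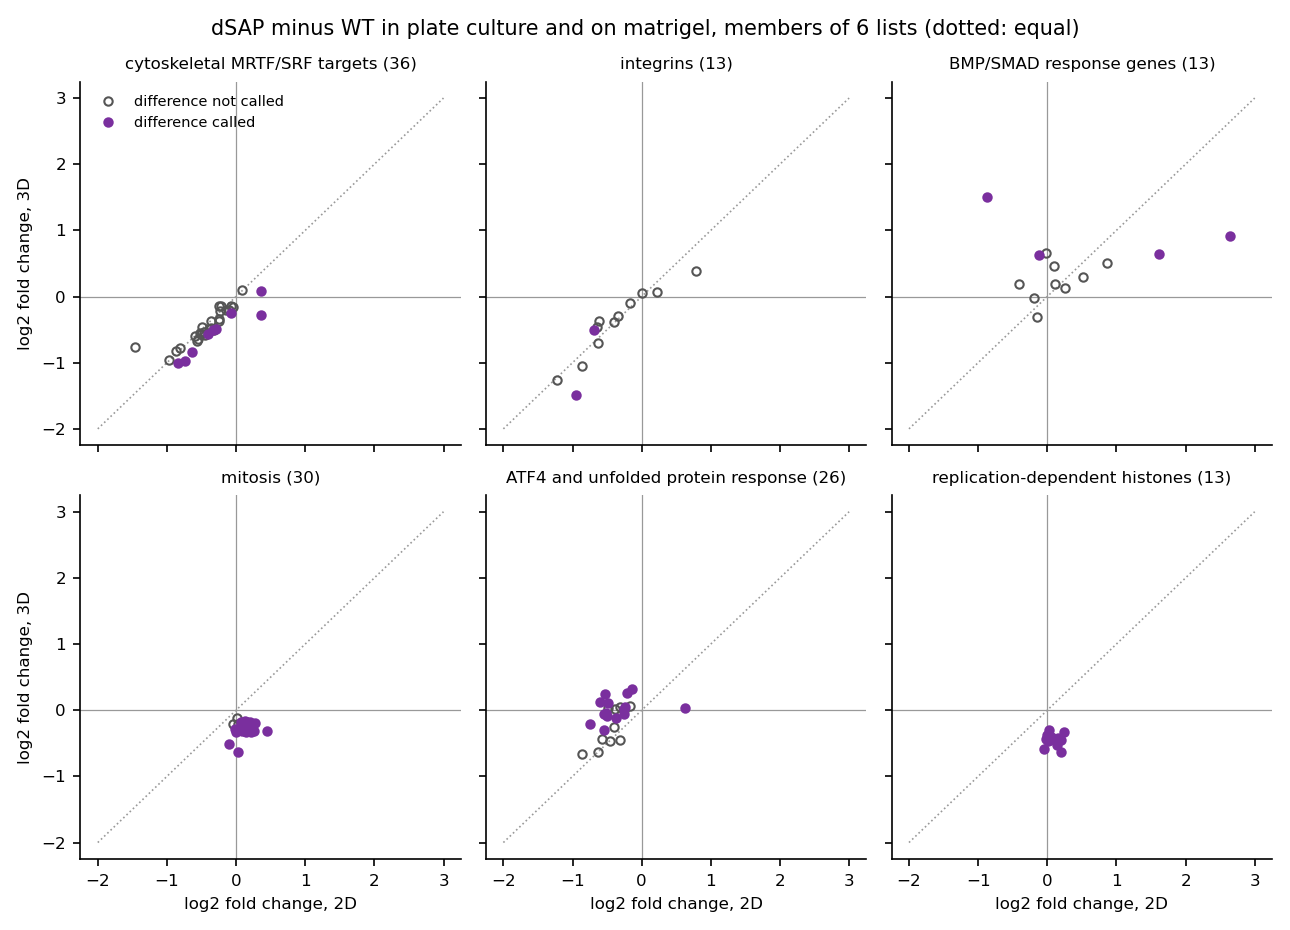
Log2 fold change of dSAP minus WT in plate culture (x axis) and on matrigel (y axis) for the tested members of 6 lists; filled points have a called difference between the cultures and the dotted line marks equal values. Cytoskeletal and integrin genes lie near the dotted line, whereas mitosis and histone genes lie below it and most filled ATF4 genes lie above it.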

How the data were processed

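Total RNA of 24 libraries had been prepared with a stranded kit and ribosomal RNA removal, per the labels' protocols, although the labels' molecule field reads polyA RNA. Salmon (written as version 11.3) and FastQC were used with hg38, per the submitters' processing notes, with an annotation not given in the sources used here. For each gene the authors deposited an estimated count and a TPM value; 29403 of 37247 gene IDs had a symbol and 34620 a position in GENCODE 29 (GRCh38).

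Estimated counts were rounded and fitted with edgeR 4.0.16 (R 4.3.3; quasi-likelihood test, robust, TMM scaling, filterByExpr) over the 18 control, WT and dSAP libraries in 6 groups (12 residual degrees of freedom, 15536654 to 21931024 counts each, common biological coefficient of variation 6.46%). The dSRF libraries were left out because that line, and 1 of its matrigel libraries, stood apart in earlier results. P-values were adjusted by Benjamini-Hochberg over the 14346 genes tested, 893 of them without a symbol, and called at 0.05. Values are CPM after TMM scaling; the SE is the log2 fold change divided by the square root of F. Members and lists were chosen with earlier results of these data known, so lists were described by counts and medians and not tested.

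Genes were named by a rule: the 15 largest rises and falls, the 10 lowest p, up to 4 members of each list, the 5 largest differences between cultures in each direction, and a set of fixed genes. The rises, falls and lowest p were taken among genes called in plate culture, with at least 1 CPM in a group and groups not overlapping, outside the MHC region (chromosome 6, 28000000 to 34000000) and near-identical families recognised by name (ACTA2, ACTG2 and KRT17 were not among these); the differences among genes whose difference was called, under the same conditions except that the groups had to be apart in only 1 culture. List members were taken by lowest p, and they and the fixed genes did not have to meet these conditions. Other list members are given by their value only.

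Alternatives were DESeq2 1.42.0, RLE factors, no filter, other sets of libraries, a replicate block, each library left out, and limma 3.58.1 on log2 TPM with pseudocounts of 1 and 0.1; 2 further settings (all libraries except 3D dSRF 1, and TMM scaling of TPM) were chosen after seeing the data. In counts simulated for the plate comparison over 14101 genes, 88 of 100 genes changed 2-fold and 73 of 100 changed 1.5-fold were recovered, with 3 false among 164 called. The changed genes were drawn from those of at least 1 CPM, and all other genes had the same mean in every group. In the data 4288 genes were called, so these rates need not hold there. Groups from the genotype field were not run.
Some items are not reported here.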

Additional observations from a re-analysis of the deposited data

Results flagged for a closer look

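The difference of dSAP minus WT was itself called as different between matrigel and plate culture for many named genes (edgeR, test of the difference, adjusted p under 0.05); values, 3D minus 2D on the log2 scale, are given here for 18 of them, those in the set of fixed genes and those with the largest differences in each direction. The construct was 0.26 higher relative to WT on matrigel than in plate culture, while MRTFB was -0.25. Among targets the difference was -0.50 for TAGLN, -0.17 for VCL, -0.22 for CCN2, -0.74 for KRT17 and 0.37 for MYL7, each in the direction the gene already took in plate culture. For ID1 it was -0.96, a smaller rise on matrigel. VAV1, at 2.42, rose in both cultures.

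Several of the others lay at low levels. Positive values were 2.85 for WNT3, 2.31 for TAGLN3, 2.28 for SLC4A5 and 2.15 for TMPRSS11E. Negative values were -3.20 for C12orf54, -1.98 for KCNMB1, -1.77 for DIO2, -1.72 for ATOH8 and -1.49 for HHIP. WNT3, TMPRSS11E, SLC4A5, DIO2, C12orf54 and ATOH8 each lost the call when single libraries were left out, and with all 24 libraries in the fit only VAV1 and WNT3 of the 18 genes kept it. ATOH8 and KCNMB1 changed sign on log2(TPM + 1) but not on log2(TPM + 0.1), where KCNMB1 was not called (-1.14, adjusted p = 0.0899). The causes of these differences were not tested.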

How the results depend on the processing

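For 148 named genes in plate culture, MRTFA apart, directions and calls mostly held. Of 1613 values under other settings 1501 kept direction and side of the threshold, 93 kept only the direction, 12 became called and 7 changed sign. Leaving out single libraries gave 869 of 888 unchanged, 17 no longer called, 1 newly called and 1 reversed. Many of these genes were picked from the same data for a low p or a large change, so these shares do not describe all genes. Of all 4288 genes called in plate culture, 3642 kept call and direction by DESeq2 and 4142 with RLE factors. On log2(TPM + 1) 2371 did, after TMM scaling of TPM 2483, and with all 24 libraries 1915. For the 1830 differences between cultures these numbers were 1564, 1815, 670, 625 and 207. With all 24 libraries in the fit the counts were lower: 1919 in plate culture (763 higher, 1156 lower), 1810 on matrigel (817 and 993) and 207 for the difference (123 and 84). MRTFA (0.947) was then not called. Leaving out only 3D dSRF 1 gave 4220, 4149 and 1791, with MRTFA called (0.947, adjusted p = 2.49e-14, edgeR quasi-likelihood test). The cause of the lower counts was not tested beyond that.

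On TPM the median of all genes moved to 0.10 and the split changed. With a pseudocount of 1 plate culture gave 2932 higher and 890 lower, matrigel 955 lower and the difference 742 (274 and 468); with 0.1 these were 2944, 854, 923 and 728 (268 and 460), and with a mean TPM of at least 1 they were 2903, 853, 940 and 774 (281 and 493). After TMM scaling of TPM they were 2700 in plate culture (1167 and 1533), 2507 on matrigel (1005 and 1502) and 684 for the difference (284 and 400).

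Leaving out 1 library gave 3311 to 3995 calls in plate culture (1370 to 1692 higher, 1879 to 2303 lower), 3314 to 3516 on matrigel (1209 to 1352 and 2053 to 2195), and 1328 to 2042 for the difference (491 to 900 and 727 to 1142; 491 without 2D dSAP 1); MRTFA ranged from 0.898 to 0.969.

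Reversed values on TPM were HHIP (-0.062, -0.083 and, TMM-scaled, -0.13) and TAGLN3 (0.053 and 0.039, with 0.053 under the TPM minimum) in plate culture, MCM5 (-0.022, TMM-scaled), and with a pseudocount of 1 only, the difference between cultures for ATOH8 (0.16 and, TMM-scaled, 0.081) and KCNMB1 (0.24 and 0.33). Without single libraries TAGLN3 ranged from -0.36 to 0.097, above 0 without 2D dSAP 3.

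No clear pairing by replicate number was seen, though 3 libraries per group are too few to show that there was none. Correlations of deviations were 0.024, -0.068 and 0.00041 in plate culture and 0.12, -0.064 and 0.069 on matrigel. In plate culture 1 of 6 libraries correlated best with their own number, and on matrigel 3 of 6. With the replicate block plate culture gave 1809 higher and 2403 lower genes. Depth limits genes under about 1 CPM.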

Other observations

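TRIM26 and ATAT1, both in the MHC region of chromosome 6 and chosen after their values were seen, were listed at 0 in all 3 dSAP libraries in plate culture. TRIM26 had 5.16, 12.17 and 12.04 CPM in the WT libraries in plate culture and a mean of 16.9 CPM in dSAP on matrigel. ATAT1, which acetylates alpha-tubulin, had 1.44, 3.57 and 1.72 CPM in WT in plate culture and a mean of 3.96 CPM in dSAP on matrigel. In both genes the zero in plate culture was thus not seen for the same line on matrigel.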
